A study of Mus musculus with 6 samples.

Results

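The genes examined were 43 genes that encode activating and inhibitory surface receptors of mouse natural killer (NK) cells, with their signalling adaptors. A gene was counted as reached when the authors' gene column named it at a peak of Ikaros, the product of Ikzf1 and a zinc finger regulator of lymphocyte genes, in chromatin immunoprecipitation with sequencing (ChIP-seq). All 43 genes were found in the RefSeq gene table, out of 21900 protein-coding genes. Of these 43 genes, 9 were named at a peak in at least 1 list and 34 were named in none. The rule takes genes by name; they were proposed with earlier results of these data known.

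Of the 6 samples, 3 were wild type (WT) and 3 carried a conditional Ikzf1 deletion acting in cells that express NKp46 (Ikzf1 KO). The peak lists analysed came from WT replicates 1, 2 and 3, and the KO libraries were not analysed here. Replicate numbers follow the sample titles, and the list of replicate 3 carries a different number in its peak names. Both groups were mouse spleen NK cells grown ex vivo in IL-15 at 50 ng/ml, fixed in 2% formaldehyde and precipitated with 2 µg of an antibody to Ikaros. The age and strain of the mice are not given in the sources used here. No label ties the replicates to different mice or cultures, and differences between lists may therefore be technical.

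NK cells decide whether to kill a target by adding up signals from paired receptors. Activating receptors mostly signal through small partner proteins with charged membrane segments, such as Tyrobp (DAP12), Hcst (DAP10) and Fcer1g. Inhibitory receptors recruit phosphatases after binding MHC class I or related ligands on healthy cells. In the mouse most of the lectin-like receptors lie in a single cluster on chromosome 6, the NK gene complex. It holds the NKR-P1 genes, the CD94 and NKG2 genes, and the Ly49 genes, which form a family of close copies.

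The 3 lists differed in length, with 685 peaks in replicate 1, 2084 in replicate 2 and 1342 in replicate 3. Library depth is unknown because the lists give no read counts, and a gene without a listed peak cannot be called unbound. Fold enrichment is the authors' ratio for a peak; the control or background it is relative to is not given in the sources used here. Percentiles below give a peak's rank by fold enrichment among the peaks of its own list, with the strongest at 100. Median fold enrichments were 5.10, 4.73 and 4.99 in replicates 1, 2 and 3. A peak list shows where the antibody to Ikaros gave a called peak and holds no expression. The NK identity of the cells could therefore not be checked from it. Whether the listed signal depends on Ikaros was not tested, since the KO libraries were not analysed here.

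Ikaros peaks were named for few of the NK receptor genes in more than 1 list, as for few of all protein-coding genes. Replicate 1 named 2 of the 43 genes, replicate 2 named 9 and replicate 3 named 3 (mean 4.67, SD 3.79, n = 3). In the same lists 2.7%, 7.77% and 5.51% of all protein-coding genes were named. Over the lists together 9 of 43 receptor genes were named in any list (20.9%, against 9.51% of all genes), 3 in 2 or more lists (6.98%, against 4.46%) and 2 in all lists (4.65%, against 2%). The 2 genes in all lists were Klrb1c and Klra5, and Tyrobp was in replicates 2 and 3. The other 6, Klrb1a, Klrb1f, Klra9, Cd244, Slamf7 and Crtam, were named in replicate 2 only, the longest list. Without replicate 2 the number named in any list fell from 9 to 3. No test of the gene set was made, and the shares are given as a description.

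Merging peaks that shared at least 1 base gave 11 regions named for these genes, of 2526 regions in all. Of the 11 regions, 3 were in all lists, 1 was in exactly 2 and 7 were in 1. How all 2526 regions split over the lists is not given here, so whether this recurrence is typical was not tested. By role, 4 of 14 activating receptors, 2 of 17 inhibitory receptors and 1 of 3 adaptors were named in any list, against 9.51% of all genes. In 2 or more lists it was 1 of 14 activating and 1 of 17 inhibitory receptors, against 4.46% of all genes, and the same 1 and 1 in all lists. The difference between roles was not tested. The rest of those named, Cd244 and Slamf7, belong to the SLAM family, whose members can signal either way.

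**Figure D1:**
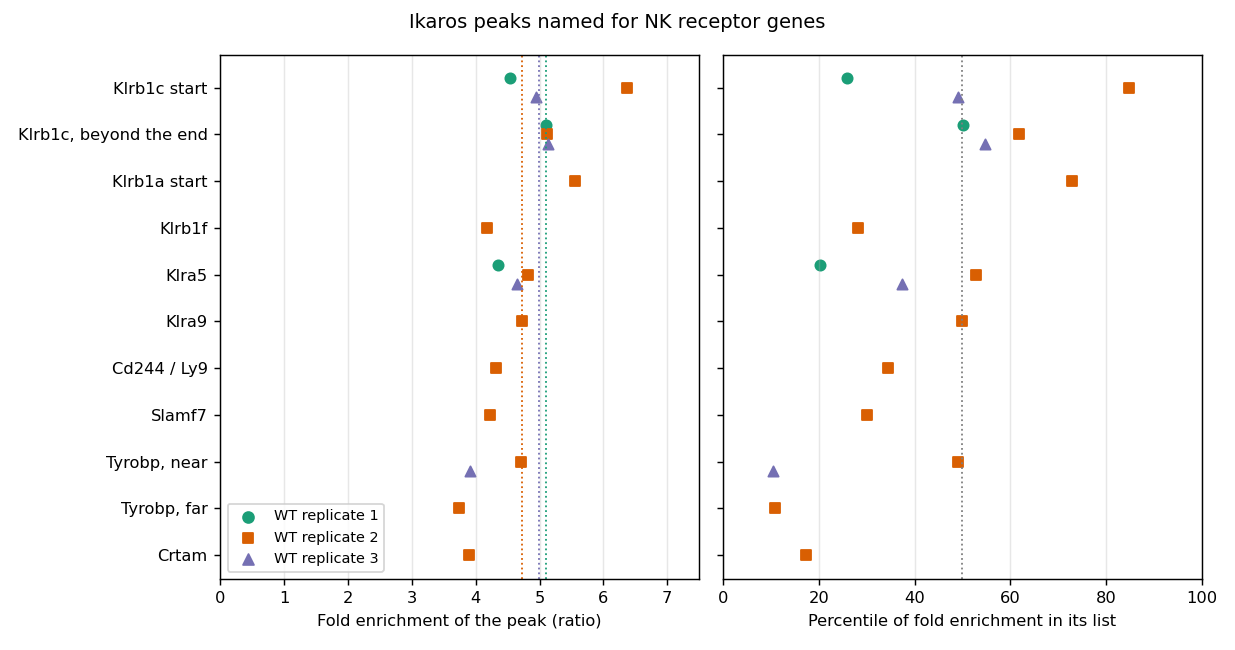
Fold enrichment (left, ratio) and percentile of fold enrichment within the list (right) for the 11 regions named for NK receptor genes; each point is 1 peak in 1 WT replicate, and dotted lines mark each list's median on the left and the 50th percentile on the right. Replicate 2 holds a point in all 11 regions, replicate 1 in 3 and replicate 3 in 4, and the strongest point is that at the start of Klrb1c in replicate 2, at a percentile of 84.9.

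Klrb1c encodes NK1.1 (NKR-P1C), the activating lectin-like receptor that marks NK cells in C57BL/6 mice. It was the receptor gene with the most peaks, 6 over the 3 lists, in 2 regions. The first region, on chromosome 6 (mm10), 128788563 to 128788960, lay across the start of Klrb1c (ENSMUSG00000030325), with its midpoint 0.12 kb before the RefSeq start on the minus strand. Its fold enrichments were 4.53, 6.38 and 4.95 in replicates 1, 2 and 3 (mean 5.28, SD 0.968, n = 3). The −log10 q values were 3.00, 7.17 and 3.33, and the percentiles 26.0, 84.9 and 49.0. Replicate 2 was the high list by each of these measures, and the peak was present in every list.

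The second Klrb1c region, on chromosome 6, 128760211 to 128760776, lay 17.7 kb beyond the far end of the gene. Its fold enrichments were 5.10, 5.12 and 5.14 in replicates 1, 2 and 3 (mean 5.12, SD 0.0208, n = 3), with percentiles of 50.1, 61.9 and 54.7. These 3 values were closer to each other than those of the region at the gene's start. The nearest other protein-coding gene, Klrb1, was 35.9 kb away.

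Regions that the authors named for another gene continued on the other side of the Klrb1c start. The authors' gene column gives Gm44511, an overlapping Ensembl gene, to the region at the start together with Klrb1c, and to a pair of further regions alone. On chromosome 6, 128796236 to 128796574, 7.60 kb from Klrb1c, fold enrichments were 6.66 and 6.88 in replicates 2 and 3. On chromosome 6, 128799108 to 128799469, 10.5 kb from Klrb1c, they were 6.12 and 6.56 in replicates 2 and 3. The −log10 q values in replicates 2 and 3 were 7.56 and 8.01 in the former region and 7.05 and 7.57 in the latter. Percentiles in these regions ran from 81.9 to 86.8, against 84.9 in replicate 2 and 49.0 in replicate 3 at the Klrb1c start, and neither region was listed in replicate 1. With RefSeq genes in place of the authors' column, both regions went to Klrb1c, the nearest protein-coding gene. Klrb1b, the inhibitory NKR-P1 receptor for Clec2d (Clr-b), was named at no peak, and the second of these regions was 14.2 kb from it.

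Klrb1a, which encodes the activating receptor NKR-P1A, had a peak at the same place relative to the gene as Klrb1c, but in 1 list. That peak, on chromosome 6, 128622883 to 128623170, had its midpoint 0.092 kb before the RefSeq start of Klrb1a (ENSMUSG00000030361). In replicate 2 its fold enrichment was 5.55, its −log10 q was 5.99 and its percentile 72.9. The nearest peak in replicates 1 and 3 was 138 kb from the gene. Among regions that the authors named for receptor genes, the 2 at gene starts were the ones with a −log10 q of 5 or more, both in replicate 2.

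The stretches of 250 bases before the starts of the 4 NKR-P1 genes are shown because peaks lay on 2 of them and not on the others. Sequences are from RefSeq (GRCm38.p6), read 5′ to 3′ on the strand of the gene. Capitals mark GGGAA, the core of the site that Ikaros recognises, searched on both strands (as TTCCC on the other). The windows are chr6:128788642-128788891 (minus strand) for Klrb1c, chr6:128622935-128623184 (minus) for Klrb1a, chr6:128826316-128826565 (minus) for Klrb1b and chr6:129045651-129045900 (plus) for Klrb1f.
Klrb1c: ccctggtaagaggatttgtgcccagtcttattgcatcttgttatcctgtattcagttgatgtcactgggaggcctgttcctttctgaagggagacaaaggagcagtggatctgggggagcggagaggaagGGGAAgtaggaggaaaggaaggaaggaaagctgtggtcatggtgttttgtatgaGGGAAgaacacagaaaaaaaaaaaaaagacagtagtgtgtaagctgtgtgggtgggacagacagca
Klrb1a: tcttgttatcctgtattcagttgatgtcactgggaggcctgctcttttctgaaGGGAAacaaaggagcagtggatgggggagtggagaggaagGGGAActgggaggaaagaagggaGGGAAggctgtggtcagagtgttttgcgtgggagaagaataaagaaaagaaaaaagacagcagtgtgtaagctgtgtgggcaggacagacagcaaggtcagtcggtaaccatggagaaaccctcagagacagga
Klrb1b: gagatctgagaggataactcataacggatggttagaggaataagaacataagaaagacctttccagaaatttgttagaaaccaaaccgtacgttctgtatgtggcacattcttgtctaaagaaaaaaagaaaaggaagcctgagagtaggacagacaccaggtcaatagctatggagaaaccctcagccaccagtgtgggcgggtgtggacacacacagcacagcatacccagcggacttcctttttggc
Klrb1f: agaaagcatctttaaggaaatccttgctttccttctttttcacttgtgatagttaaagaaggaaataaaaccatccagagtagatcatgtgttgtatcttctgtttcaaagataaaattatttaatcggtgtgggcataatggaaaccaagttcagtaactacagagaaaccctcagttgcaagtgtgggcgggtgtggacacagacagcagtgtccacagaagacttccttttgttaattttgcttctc

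The Klrb1c window held 2 copies of GGGAA, beginning 120 and 66 bases before the start, and Klrb1a held 3, beginning 197, 157 and 134 bases before it. Peaks covered 135, 250 and 250 of the 250 Klrb1c bases in replicates 1, 2 and 3, and 236 of the Klrb1a bases in replicate 2. The windows of Klrb1b and Klrb1f held 0 copies and no peak, although the 50 bases after the start of Klrb1f hold 1 copy on the other strand. In a local alignment of the 300-base promoters, which add 50 bases after the start, Klrb1a and Klrb1c were 89.1% identical over 265 columns. Klrb1b and Klrb1f were 76.1% identical over 138 columns. Short reads from such copies may be hard to place, and how the authors treated them is not given in the sources used here.

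The same letters were counted in the promoters of all receptor genes. RefSeq promoter sequences of 300 bases were found for 35 of the 43 genes, and 23 of their 43 promoters held GGGAA on either strand (53.5%). The share was 62.7% of 32851 promoters of all genes and 69.1% of the 592 promoters that a peak overlapped in at least 2 lists. For the 260 promoters that a peak overlapped in all lists it was 66.9%. A peak overlapped the promoter of 2 of 35 receptor genes in any list (5.71%, against 5.88% of 17492 protein-coding genes). In 2 or more lists, and also in all lists, it was 1 of 35 (2.86%, against 2.73% and 1.18%), which is Klrb1c. The promoters of Fcer1g and Slamf1 held 4 and 3 copies, with no peak on them in any list. These matches are descriptions of letters, not of bound sites.

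Klrb1f, which encodes NKR-P1F, an activating receptor for Clr family ligands, was named at a weak peak in replicate 2. It lay on chromosome 6, 129037038 to 129037238, 8.76 kb before the RefSeq start of Klrb1f (ENSMUSG00000030154). Its fold enrichment was 4.18 and its percentile 28.2. Thus 3 of the 4 NKR-P1 genes were named in any list, against 9.51% of all genes, and 1 in 2 or more, against 4.46%.

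The Ly49 genes encode receptors for MHC class I, most of them inhibitory. Of the 9 examined, 2 were named in any list, against 9.51% of all genes, and 1 in 2 or more, against 4.46%. Klra5 (Ly49E, inhibitory; ENSMUSG00000030173) was named in all lists at a region on chromosome 6, 129917472 to 129917838. Its fold enrichments were 4.35, 4.82 and 4.65 in replicates 1, 2 and 3 (mean 4.60, SD 0.237, n = 3), with −log10 q values of 2.19, 3.16 and 2.76. Percentiles were 20.3, 52.9 and 37.4, so the peak recurred in every list while ranking below the median in replicates 1 and 3. With every list shortened to its strongest 685 peaks, Klra5 was named in 1 list. The authors give a distance of 0 to Klra5, but in RefSeq the region lay 4.24 kb outside the gene and 4.43 kb before its start.

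Klra9 (Ly49I, inhibitory; ENSMUSG00000033024) had a peak in replicate 2 at a similar distance. It lay on chromosome 6, 130197567 to 130197825, with its midpoint 4.58 kb before the RefSeq start of Klra9, and its fold enrichment was 4.73 (percentile 49.8). Several Ly49 genes are known to carry a second promoter some kilobases upstream of the main one; whether these regions coincide with it was not tested. The promoters of Klra5 and Klra9 were 88.3% identical over 248 columns, and those of Klra3 and Klra9 95.4% over 284 columns. No peak overlapped these promoters, and the sequence under the Klra5 and Klra9 peaks was not read. Klra3 (Ly49C) was named at no peak, and its nearest was 125 kb away. The other Ly49 genes named at no peak were Klra1 (Ly49A), Klra4 (Ly49D), Klra6 (Ly49F), Klra7 (Ly49G), Klra8 (Ly49H, the activating receptor for a cytomegalovirus protein) and Klra10 (Ly49J). Among these the nearest peaks were 20.8 kb from Klra7 and 67.7 kb from Klra8, both in replicate 2.

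None of the 8 CD94, NKG2, Klre and Klri genes was named at a peak, where 9.51% of all genes were named in any list, so a count of 0 among 8 genes is near the background. These are Klrd1 (CD94), Klrc1 (NKG2A, the inhibitory partner of CD94), Klrc2, Klrc3, Klrk1 (NKG2D, the activating receptor for stress-induced ligands), Klre1, Klri1 and Klri2. The gap to the nearest peak was between 177 and 332 kb for every gene of this group in every list. The group's median gap was 266, 265 and 265 kb in replicates 1, 2 and 3, against 857, 254 and 405 kb over all protein-coding genes, so in no list was it far above that of all genes. These genes lie in the longest stretch of the complex without a peak in any list, 642 kb from chromosome 6, 129275667 to 129917472. It begins after a peak at Cd69 and ends at the Klra5 region. Over the whole complex, from Klrb1a to Klra1 (128609227 to 130386874, 1.78 Mb), the lists held 10 regions, of which 6 were named for receptor genes. The density of regions over the genome is not given here. Whether the 642 kb stretch or the 10 regions are unusual was therefore not tested. Of the 21 receptor genes in the complex, 5 were named in any list, against 9.51% of all genes, and 3 of these, Klrb1a, Klrb1f and Klra9, in replicate 2 only.

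**Figure D2:**
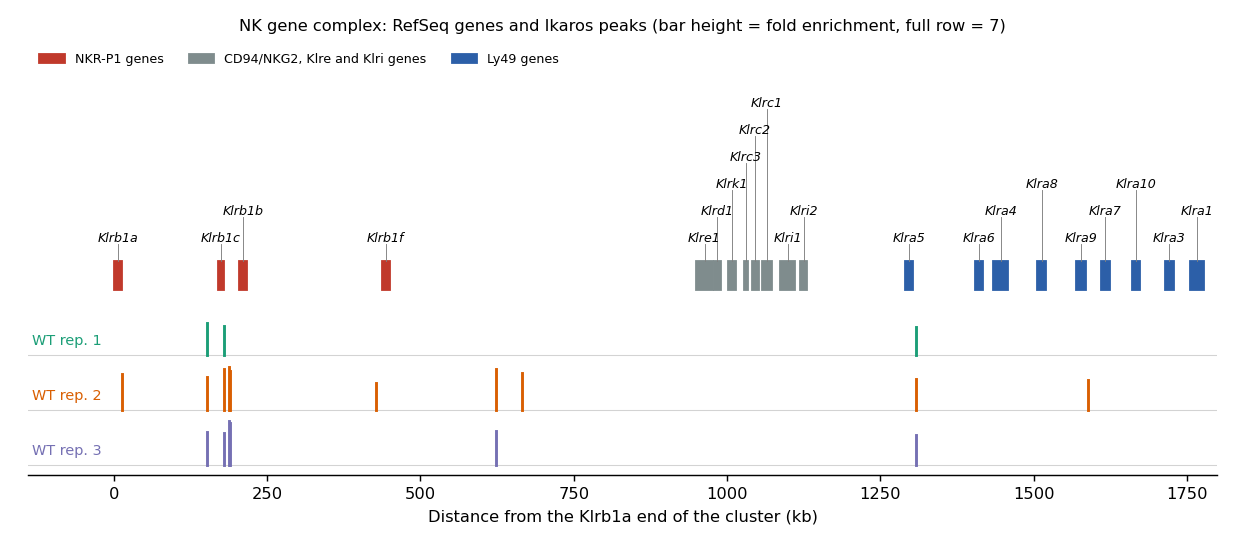
Map of the NK gene complex, in kb from the Klrb1a end, with the RefSeq span of the 21 receptor genes as boxes and each peak of the 3 WT lists as a vertical bar whose height is its fold enrichment (a full row is 7). Peaks gather around Klrb1c and recur beside Klra5 in all 3 lists, and the block of CD94, NKG2, Klre and Klri genes has its nearest peak 177 kb away.

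Ncr1 encodes NKp46, the activating receptor whose expression defines the cells deleted in the KO. It was named at no peak. A strong region in all lists nevertheless lay 9.70 kb beyond its far end, on chromosome 7, 4354884 to 4355498, and was named for Gp6, a platelet collagen receptor. This region was singled out after its values were seen. Fold enrichment there was 16.0, 29.8 and 24.0 in replicates 1, 2 and 3, at percentiles of 98.0, 99.3 and 99.0. It ranked above every peak named for a receptor gene in each list.

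Among the adaptors, Tyrobp (DAP12, the partner of activating Ly49 receptors) was named at 2 regions and Hcst, Fcer1g and the Fc receptor gene Fcgr3 (CD16) at none. The region nearer to Tyrobp (ENSMUSG00000030579), on chromosome 7, 30409989 to 30411159, lay 2.62 kb outside the gene. Its fold enrichments were 4.72 and 3.91 in replicates 2 and 3, and its percentiles 49.0 and 10.5. These peaks were wide, 1076 and 1011 bp against list medians of 292.5 and 294 bp. The region farther out, on chromosome 7, 30394664 to 30394907, was in replicate 2 only, with a fold enrichment of 3.73 at percentile 10.9. Hcst (DAP10, the partner of NKG2D) adjoins Tyrobp, and its nearest peak, 1.77 kb away in replicate 2, was named for Nfkbid, with a fold enrichment of 3.59.

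SLAM family receptors bind each other or CD48 on neighbouring blood cells. Of the 5 genes examined, 2 were named, both in replicate 2 only, where 7.77% of all genes were named. Cd244 (2B4; Cd244a in RefSeq; ENSMUSG00000004709) was named at chromosome 1, 171607167 to 171607399, with a fold enrichment of 4.32 (percentile 34.5). The authors give a distance of 0, but in RefSeq that peak lay 21.9 kb from Cd244 and overlapped Ly9, another SLAM gene, which the authors name there too. With RefSeq genes, Cd244 was no longer named. Slamf7 (CRACC; ENSMUSG00000038179) was named at chromosome 1, 171629301 to 171629867, 2.54 kb outside the gene, with a fold enrichment of 4.23 (percentile 30.0). Slamf1, Slamf6 and Cd48, the ligand of 2B4, were named at no peak.

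Receptors for nectins and Cadm1 comprise Cd226 (DNAM-1), which activates, Tigit and Cd96, which oppose it, and Crtam, an activating receptor. Crtam (ENSMUSG00000032021) was the 1 of these 4 that was named in any list, against 9.51% of all genes. Its peak, on chromosome 9, 40996388 to 40997350, lay within the RefSeq span of the gene; exons and introns were not assigned. In replicate 2 the fold enrichment was 3.89, the percentile 17.4 and the width 963 bp. Its −log10 q of 1.39 was close to the lowest in that list, 1.06.

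The checkpoint and remaining receptors, Pdcd1 (PD-1), Ctla4, Lag3, Havcr2 (TIM-3), Klrg1, Cd160, Cd27 and Cd7, were named at no peak. Of all genes 9.51% were named in any list, so a count of 0 among 8 genes is near the background. Some had peaks named for a neighbour. A peak 17.7 kb from Havcr2 was named for Med7, at 5.79-fold in replicate 2 and 5.45-fold in replicate 3. A peak 5.33 kb from Lag3, named for Ptms, was in replicate 3 only, with 3.98. The peak 12.5 kb from Klrg1, with 4.48 in replicate 2, was given to Klrg1 when RefSeq genes were used. These neighbours were looked up after the lists had been seen.

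Distance to the nearest peak, measured for every gene without regard to the authors' naming, was a second count. A peak lay within 10 kb of the RefSeq span of 11 of 43 receptor genes in any list (12.4% of all protein-coding genes), of 5 in 2 or more lists (6.16%) and of 3 in all lists (2.79%). The 5 were Ncr1, Klrb1c, Klra5, Hcst and Tyrobp. In replicate 3 the peak near Hcst, 6.71 kb away, was the one named for Tyrobp, so the same peak counts for both genes. The median gap over the receptor genes was 332, 125 and 235 kb in replicates 1, 2 and 3, against 857, 254 and 405 kb over all protein-coding genes on chromosomes with a peak. The 21 genes of the NK gene complex share their neighbourhood, as do Hcst and Tyrobp, so these gaps are not independent.

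**Figure D3:**
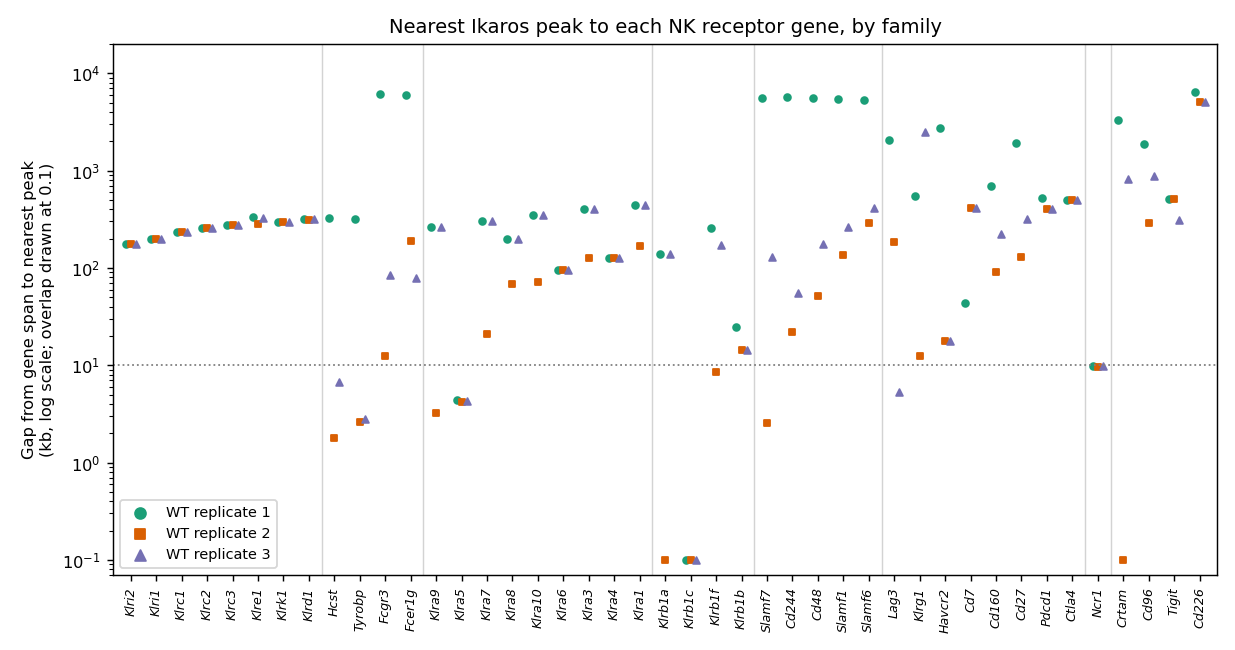
Gap in kb (log scale) from the RefSeq span of each of the 43 genes to the nearest peak in each WT list, grouped by family; overlaps are drawn at 0.1 and the dotted line marks 10 kb. Klrb1c overlaps a peak in all lists, Klra5 and Ncr1 sit under 10 kb in all lists, and the CD94, NKG2, Klre and Klri genes all lie between 177 and 332 kb.

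The strength of peaks named for receptor genes varied within their lists. Above the 50th percentile stood 1 of 3 such peaks in replicate 1, 4 of 11 in replicate 2 and 1 of 4 in replicate 3. Median percentiles were 26.0, 49.0 and 43.2 in the same order, and the highest were 50.1, 84.9 and 54.7. The highest in replicate 2 were those at the starts of Klrb1c (84.9) and Klrb1a (72.9).

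Genes that carry the receptors' signals and genes of their ligands were counted in the same way. Of 30 signalling genes, 9 were named in any list, against 9.51% of all genes, and 3 in 2 or more, against 4.46%. None was named in all lists, against 2% of all genes. Vav2 had a region on chromosome 2, 27426654 to 27427339, with 4.16 and 5.14 in replicates 1 and 2. Pik3cb, a catalytic subunit of PI 3-kinase, had peaks of 4.26 and 5.32 in replicates 2 and 3. Malt1, a scaffold between receptors and NF-kappa-B, had 5.83 and 5.28 in the same replicates. Of 8 genes of inhibitory signalling, 2 were named in any list and 1 in 2 or more, against the same shares of all genes. The latter was Ptpn11 (SHP-2), with 5.38 and 4.77 in replicates 2 and 3, 3.15 to 3.18 kb from the gene.

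Of 26 ligand genes, 1 was named in any list, Pdcd1lg2, and none in 2 or more. Of 37 other surface receptor genes, 2 were named, Cd69 in 1 list and Klra2, a Ly49 family gene, in 2. The Klra2 peaks had 5.76 and 6.06 in replicates 2 and 3, at percentiles of 76.9 and 75.3, and lay 14.5 to 14.6 kb from the gene. The same background shares apply, 9.51%, 4.46% and 2% of all genes in any, 2 or more and all lists. Among markers of other cells, 1 of 14 T cell genes was named, Trac, in replicates 1 and 2 with 3.96 and 5.70. None of 10 B cell, 10 myeloid and 8 innate lymphoid genes was named. The difference between signalling and ligand genes was not tested.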

How the data were processed

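Ikaros ChIP-seq peak lists of 3 WT libraries were used, on mm10 per the submitters' processing notes, which name Subread, Picard, SAMtools, MACS2 and edgeR 3.20.0 without roles. The control library, threshold and annotation are not given in the sources used here. Per the file headers, a peak carries the authors' fold enrichment (a linear ratio), −log10 p and q, and the distance to a named gene. The deposited score was not used further. Each list was called on 1 library, per the peak names. Peaks named for several genes were counted once per region. Of the peak numbers, 41, 50 and 42 were not in the lists of replicates 1, 2 and 3 and were not analysed here.

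A peak belonged to a receptor gene when the authors' gene column named it. Peaks of different lists sharing at least 1 base were merged. Percentiles are the share of a list's peaks with an equal or lower fold enrichment. For background shares, 2083 of 2145 protein-coding names in the lists matched the RefSeq table (GRCm38.p6) by symbol or unique synonym. That table has no strand; starts and strands came from RefSeq promoter sequences, 250 bases before to 50 after the start. Promoters were aligned locally (match 1, mismatch -1, gap opening -3, extension -1). No significance test was run, since the lists have no second group. The rule on names took every gene of the set, and of other lists the genes named in 2 or more lists; a few others were named as neighbours. The genes, lists and rules were chosen with earlier results of these data known. On simulated lists, merging recovered 200 of 200 planted regions. Python 3.11.15, pandas 2.3.3, NumPy 2.4.6, Biopython 1.88 and matplotlib 3.10.9 were used. Alternatives were RefSeq assignment, a 10 kb limit, stricter −log10 q values, equal list lengths, 50% overlap, ranking by −log10 q and leaving out each replicate.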

Additional observations from a re-analysis of the deposited data

How the results depend on the processing

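No paired analysis was possible because only WT lists were used, so no KO partner entered any result. Stricter thresholds and shorter lists leave fewer peaks by construction. Shares of all protein-coding genes and of all regions under the altered settings are not given here. Lower counts below can therefore not be read as a trait of the receptor genes. At a −log10 q of 5 or more, 2 receptor genes were named in any list, Klrb1a and Klrb1c, 0 in 2 or more lists and 0 in all lists, with 0 regions in 2 or more lists and 0 in all. At 10 or more, each of these 5 counts was 0. Counts at both thresholds follow the authors' gene column. The regions named for Gm44511 alone, which RefSeq gives to Klrb1c, passed 5 in replicates 2 and 3 and are not counted. With every list shortened to its strongest 685 peaks, 3 genes were named in any list, 1 in 2 or more and 1 in all (Klrb1c in both, Klra5 being lost from both and Tyrobp from the former), with 2 regions in 2 or more lists and 1 in all. Without 1 replicate, genes named in any list ranged from 3 (without replicate 2) to 9, genes in 2 lists from 2 to 3, and regions in 2 lists from 3 to 4. RefSeq assignment, the 10 kb limit and the 50% overlap kept every count within 1.5 times; RefSeq assignment named Klrg1 in place of Cd244 and gave 6 regions in 2 or more lists. Ranking by −log10 q gave each of the 11 regions a lower percentile, the Crtam region going from 17.4 to 4.80. Of these, 5 moved beyond the limit set, all of them regions in 1 list. For such regions the limit was a binomial counting interval, which does not measure the spread of a peak's rank. For regions in more lists it was the SD between lists, and the Klra5 region, from 36.9 to 24.8, stayed within it. The count of 5 therefore rests on unlike limits. Depth is unknown, so a weak site missing from the shorter lists cannot be told from an unbound one.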
